A study of Mus musculus with 44 samples.

Results

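The genes described here are 46 genes of the cell cycle, from entry into G1 to the exit from mitosis, chosen as a list of named genes with earlier results of these data known. All 46 were found by symbol among the 35249 genes of a mouse liver RNA sequencing table, and all 46 were among the 14862 genes tested. The study compared 3 genotypes on 3 diets. WT mice, mice lacking Ripk3 (Ripk3-/-, here Ripk3KO) and mice lacking Mlkl (Mlkl-/-, here MlklKO) were 2 months old at the start. RIPK3 is the kinase, and MLKL the membrane-rupturing effector, of necroptosis, a lytic form of programmed cell death. For 6 months each mouse received normal chow (control), a low-fat diet without choline (CD-LFD) or a high-fat diet without choline (CD-HFD). There were 6 WT livers on each diet. Ripk3KO contributed 6 livers on control, 3 on CD-LFD and 4 on CD-HFD, and MlklKO 6, 4 and 3. The replicate is the liver, and the labels name no promoter or Cre for the knockouts. Sex, litter and the hour of dissection are not in the labels. Values below are CPM, counts scaled to the size of the library and by the trimmed mean of M values, a level within 1 gene. They are not divided by transcript length, so levels of different genes are not compared.

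Most hepatocytes of an adult liver rest outside the cycle and re-enter it after injury or loss of tissue. Cyclin D and then cyclin E drive passage through G1 into S phase, where E2F factors turn on the genes for replication licensing, the replication fork and nucleotide supply. Many promoters of G2 and mitosis genes carry the cell cycle homology region, where the DREAM complex represses them in resting cells and B-MYB (Mybl2) and FOXM1 activate them later in the cycle, and CCAAT boxes bound by NF-Y. Cyclin B with CDK1, the Aurora and Polo-like kinases and the spindle checkpoint then run mitosis, and the anaphase-promoting complex ends it.

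Promoter sequence is shown for 7 members, as examples of members that act in mitosis, in replication and in nucleotide supply. The stretches are the 140 bases just before the annotated start in the RefSeq promoter table (build GRCm38.p6), printed 5′ to 3′ on the gene's strand. Capitals mark matches to 3 motifs on either strand: the cell cycle homology region TTTGAA, the NF-Y motif CCAAT, and the E2F forms TTTGGCGC, TTTCCCGC, TTTGCCGC and TTTCGCGC. Ccnb1, Cdk1, Cdc20 and Top2a act in G2 and mitosis, Mcm6 and Mcm7 in replication, and Tk1 is the member that fell most in WT livers.
Ccnb1 (chr13:100786487-100786626, - strand): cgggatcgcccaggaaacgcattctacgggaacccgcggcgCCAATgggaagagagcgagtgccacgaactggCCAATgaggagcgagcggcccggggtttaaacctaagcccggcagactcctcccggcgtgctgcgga
Cdk1 (chr10:69352913-69353052, - strand): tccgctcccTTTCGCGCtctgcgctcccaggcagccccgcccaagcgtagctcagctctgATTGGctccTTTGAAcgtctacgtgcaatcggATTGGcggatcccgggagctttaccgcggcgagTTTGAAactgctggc
Cdc20 (chr4:118437344-118437483, - strand): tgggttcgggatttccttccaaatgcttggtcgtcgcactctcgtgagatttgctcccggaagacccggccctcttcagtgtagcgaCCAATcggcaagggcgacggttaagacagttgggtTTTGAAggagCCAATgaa
Top2a (chr11:99024190-99024329, - strand): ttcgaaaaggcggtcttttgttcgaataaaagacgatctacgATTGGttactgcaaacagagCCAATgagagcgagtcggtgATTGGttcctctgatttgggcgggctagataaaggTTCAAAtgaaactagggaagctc
Mcm6 (chr1:128359706-128359845, - strand): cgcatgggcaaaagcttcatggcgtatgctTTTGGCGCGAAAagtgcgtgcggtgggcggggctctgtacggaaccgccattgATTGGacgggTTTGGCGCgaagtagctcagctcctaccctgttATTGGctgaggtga
Mcm7 (chr5:138171884-138172023, - strand): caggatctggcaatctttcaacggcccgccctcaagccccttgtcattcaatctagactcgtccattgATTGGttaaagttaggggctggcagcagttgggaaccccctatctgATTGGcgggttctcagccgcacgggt
Tk1 (chr11:117826015-117826154, - strand): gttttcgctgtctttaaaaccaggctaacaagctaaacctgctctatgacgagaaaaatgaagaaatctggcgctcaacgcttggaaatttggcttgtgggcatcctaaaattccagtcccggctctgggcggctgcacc

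The Cdk1 stretch held 2 homology regions, 2 NF-Y motifs and 1 E2F motif, and that of Mcm6 held 3 E2F motifs, 2 of which overlap on opposite strands, and 2 NF-Y motifs. Cdc20 and Top2a each held 1 homology region beside 2 and 3 NF-Y motifs. Those of Ccnb1 and Mcm7 held 2 NF-Y motifs and neither of the other motifs, and that of Tk1 held none of the 3. The Mcm7 window holds 2 E2F matches outside the stretch printed, and counts among those with an E2F form. Over the full windows, from 250 bases before to 50 after the start, 37 of the 46 members matched the table, with 39 windows. The 9 others, Ccna2, Ccne2, Ccnd1, Aurkb, Tpx2, Kif20a, Mcm4, Foxm1 and Stmn1, are named only. The homology region was in 48.7% of the members' windows and in 17.9% of all 32851 windows of the table. The NF-Y motif was in 74.4% against 37.4%, and an E2F form in 15.4% against 2.26%. Both the homology region and the NF-Y motif were in 46.2% against 6.95%. The homology region was in 75% of the 12 windows of spindle and chromosome genes and in 22.2% of the 9 windows of replication genes. An E2F form was in 55.6% of the replication windows and in none of the spindle and chromosome windows. These are matches of letters in fixed windows, and no binding was measured.

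**Figure D1:**
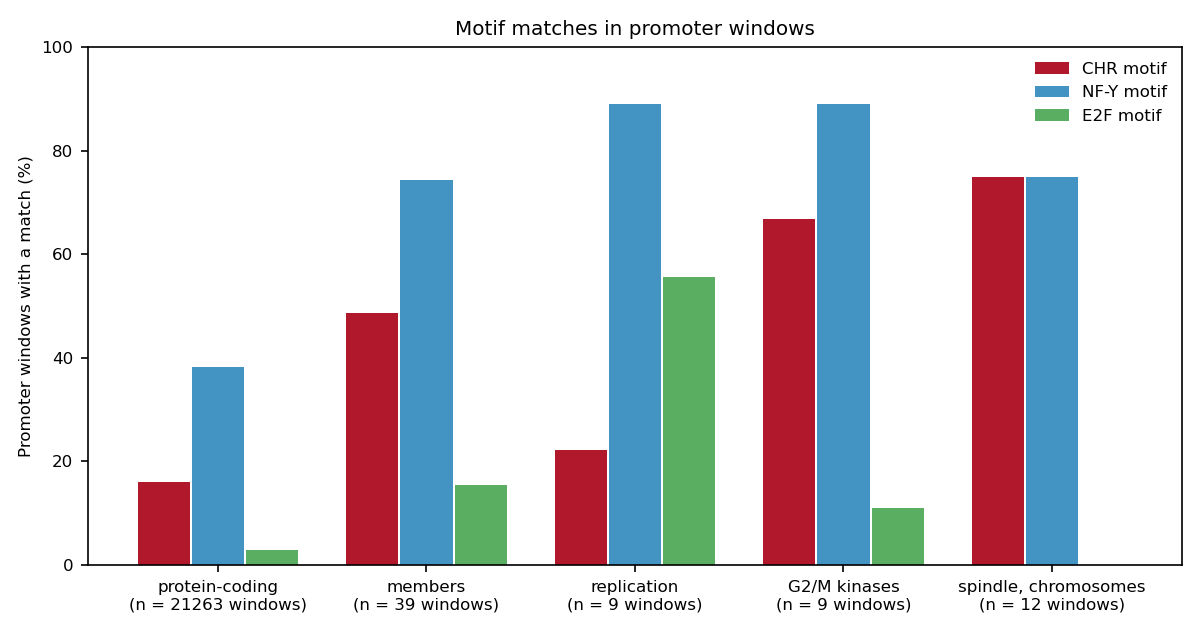
Share of RefSeq promoter windows (%) with at least 1 match to each of 3 motifs, for all protein-coding genes, the members and 3 role groups of the members. Bars for the homology region (CHR) reach 66.7% and 75% in the G2/M and spindle groups, and the E2F bar is tallest, at 55.6%, in the replication group.

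Library totals ran from 2476268 to 12471844 counts, apart from WT CD-LFD replicate 3 with 88204703. Of the targeted genes, Ripk3 was at 0 to 0.206 CPM (over all counts of the library) in Ripk3KO livers on the choline-deficient diets and at 1.1 to 5.94 CPM in WT livers on them. On control the Ripk3KO livers reached 1.01 CPM (replicate 5), inside the WT range of 0.439 to 4.78. Mlkl was at 3.55 to 14.4 CPM in the libraries labelled MlklKO CD-HFD, of which replicate 1 had the highest value, against 17.2 to 22.6 in WT. On control it was at 1.24 to 2.61 CPM in MlklKO, overlapping the WT range of 2.02 to 5.5. Ripk3KO control replicate 5 and MlklKO CD-HFD replicate 1 were left out in a further fit, together with WT control replicates 5 and 6. Earlier results of these data had set these 2 WT livers apart. Their mean log2(CPM + 0.5) over the 11 G2 and M genes was 0.51 and 0.30, against -0.32 to -0.10 in the other 4. Leaving them out lowers the WT control level of those genes, so that fit is not independent of the members' values. The log2 ratio of the clock genes Arntl to Dbp split the libraries into 33 and 11. The 11 were WT control replicates 1, 3, 5 and 6, all 6 WT CD-LFD livers and WT CD-HFD replicate 3, so clock phase and diet are partly mixed in WT. All Ripk3KO and MlklKO livers were among the 33, so phase is also mixed with genotype, and on CD-LFD the phase and the difference between the knockouts and WT cannot be told apart. Nothing states that replicate numbers mark separate litters or cages, and p-values measure the spread between these livers.

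Most of the 46 genes were higher in livers on the choline-deficient high-fat diet than on control chow, in all 3 genotypes. In WT livers 38 of 46 rose on CD-HFD and 1 fell, beside 23.5% of all genes higher and 24.1% lower (edgeR quasi-likelihood test, Benjamini-Hochberg adjusted p under 0.05, as for every call below). Their median log2 change was 1.93, against -0.07 over all genes tested. In Ripk3KO livers 35 rose and 1 fell (24.6% of all genes higher and 21.7% lower, median 2.29), and in MlklKO livers 38 rose and 1 fell (24.9% higher and 20.3% lower, median 2.59). Every CD-HFD liver was above every control liver for 24 members in WT, as for 14.3% of all genes, for 36 in Ripk3KO (20.6%) and for 36 in MlklKO (22.2%). Each genotype has its own controls, and 34 members rose in all 3, as did 17.9% of all genes. Cdc45, Mcm7, Rrm2 and Tk1 rose in none. On control chow 13 members in WT, 11 in Ripk3KO and 12 in MlklKO had every library at or under the floor, the level of 3 counts in the group's smallest library. With those at the bound this sets, the medians were 1.44, 1.92 and 2.20. The floor was 1.37 CPM in WT, 0.72 in Ripk3KO and 0.65 in MlklKO control livers. These medians and the folds given below as "at least" are therefore not comparable between genotypes. Fewer cycling cells and less RNA per cycling cell cannot be told apart in whole tissue.

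Only 20 of the 46 would have passed the count filter on control libraries alone, so the other 26 were tested because they are high on the choline-deficient diets, and their calls are no support. The 26 are 10 of the 11 G2 and M genes, 11 of the 14 spindle and chromosome genes, both genes of the anaphase-promoting complex, Cdc6, and 2 of the 6 genes of G1 and entry into S phase (Mybl2 and Foxm1). Of the 20, 13 rose and 1 fell in WT on CD-HFD, beside 16.3% of the 11799 genes kept on the same filter rising and 29.6% falling. In Ripk3KO 9 rose and 1 fell (16.4% and 26.7%), and in MlklKO 12 rose and 1 fell (16.8% and 25.3%). Scaling by library size alone shifted the median of all genes to 0.43 in WT, with 87% of all calls then higher in place of 49.4%. The members' median was then 2.42, with 43 higher and 1 lower. In Ripk3KO the median of all genes was then 0.49, with 90.3% of calls higher in place of 53.1%, and in MlklKO 0.49, with 89.7% in place of 55.1%. With that scaling 42 members rose in Ripk3KO and 43 in MlklKO, and none fell.

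**Figure D2:**
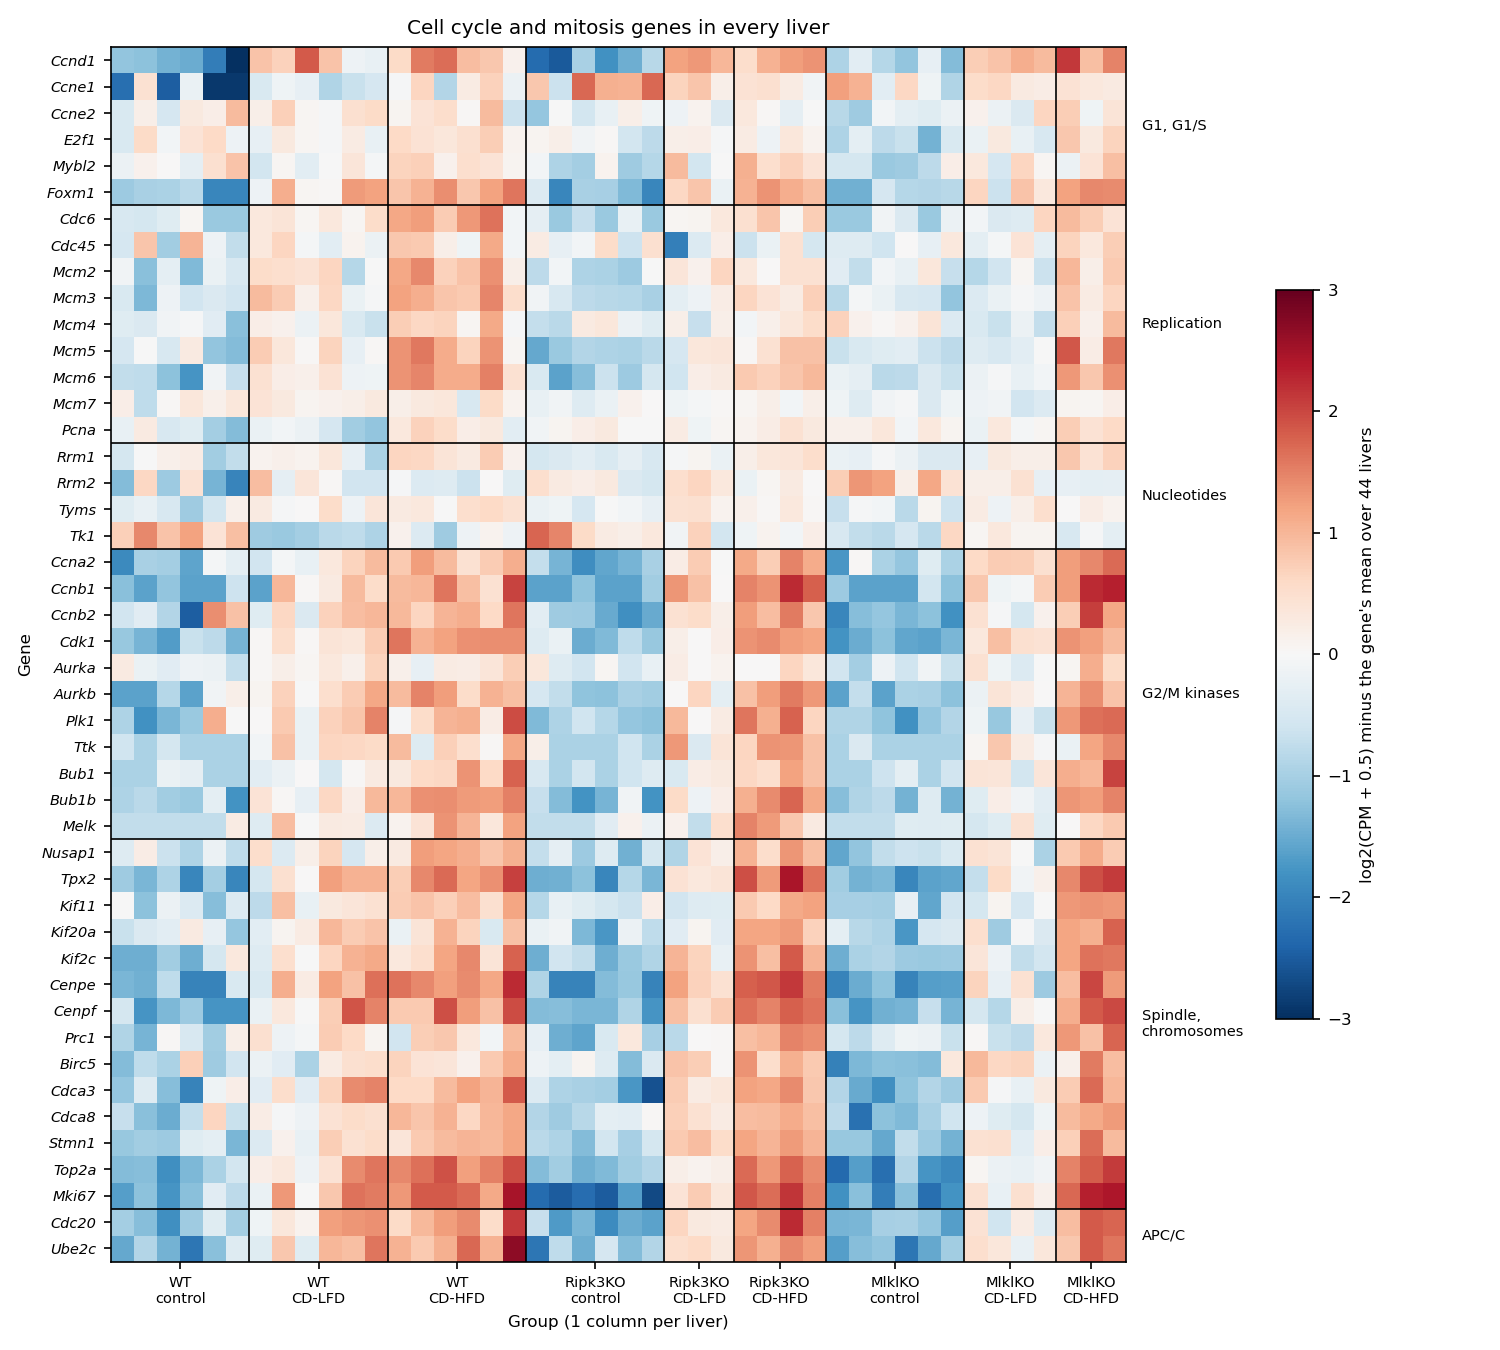
Level of each of the 46 genes in each of 44 livers, as log2(CPM + 0.5) minus the gene's mean over all livers, with genes ordered by role and livers by group. Control livers are blue in the lower, mitotic block and CD-HFD livers red, while Ccne1, Mcm7, Rrm2 and Tk1 do not show this pattern, and Tk1 is lower in WT livers on the choline-deficient diets than on control.

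Among the 6 genes of G1 and of the passage into S phase, 3 rose in WT on CD-HFD, Ccnd1, Ccne1 and Foxm1, beside 23.5% of all genes. Of the 4 that pass the filter on control livers, 2 rose (16.3% of the genes kept on it). Foxm1 and Mybl2 are not among those 4, so their calls are no support. In Ripk3KO 3 of the 6 rose and in MlklKO 5 (24.6% and 24.9% of all genes). Of the 4 kept, 1 and 3 rose there (16.4% and 16.8%). Ccnd1, the cyclin D that couples growth signals to the cycle, lay at 3.18, 12.3 and 15.0 CPM (lowest, median, highest) in WT control livers and at 37.7, 63.5 and 112 on CD-HFD. Every CD-HFD liver was above every control liver, with a log2 change of 2.70 (SE 0.34, adjusted p = 1.21e-08). The change was 2.64 (SE 0.35, adjusted p = 5.08e-08) in Ripk3KO and 2.36 (SE 0.36, adjusted p = 8.34e-07) in MlklKO. Foxm1, the forkhead factor for mitotic genes, was at 0, 0.451 and 0.615 CPM on control, within the counting floor, and at 2.92, 3.78 and 5.47 on CD-HFD, at least 2.86-fold higher. The groups did not overlap.

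Ccne1, the cyclin E that starts S phase, was at 0.276, 4.64, 0.170, 2.77, 0 and 0 CPM in the 6 WT control livers in replicate order. It was at 3.12, 5.36, 1.53, 3.89, 5.56 and 2.79 on CD-HFD, and the groups overlapped, with control replicates 2 and 4 high and the other 4 at or near 0. Its WT rise of 1.58 (SE 0.53, adjusted p = 0.0119) was lost with clock phase in the fit, with the 33 libraries of the larger phase alone, without the 4 libraries named above and with those groups fitted alone. In the knockouts Ccne1 changed by -0.93 (SE 0.47, adjusted p = 0.0998) and -0.07 (SE 0.53, adjusted p = 0.922). Ccne2 was at 1.19, 2.24 and 4.15 CPM on control and 1.03, 2.36 and 4.11 on CD-HFD in WT, with a change of 0.19 (SE 0.32, adjusted p = 0.656). In MlklKO Ccne2 was called higher (log2 0.68 to 1.47 over the alternatives). That call was lost with no count filter and without the 4 libraries named above. It was also lost without MlklKO control replicate 1, 2 or 5 or MlklKO CD-HFD replicate 1 or 4. E2f1, the factor that activates S phase genes, was at 3.45, 5.68 and 7.76 and 5.37, 6.98 and 8.54 in WT and did not pass the test (0.33, adjusted p = 0.195). In MlklKO, where its control level was lowest, at 1.52, 2.78 and 3.91 CPM, it rose to 9.05, 6.13 and 8.13, a change of 1.48 (SE 0.25, adjusted p = 4.64e-06) with no overlap. Mybl2, or B-MYB, changed by 0.33 (SE 0.41, adjusted p = 0.527) in WT and rose in Ripk3KO by 1.95 (SE 0.48, adjusted p = 0.000867) and in MlklKO by 1.73 (SE 0.52, adjusted p = 0.00644). The MlklKO call was lost without MlklKO CD-HFD replicate 4.

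Of the 9 genes of replication licensing and the fork, 7 rose in WT on CD-HFD, with a median log2 change of 1.64, beside 23.5% of all genes higher. In each knockout 5 of the 9 rose, with medians of 1.03 in Ripk3KO and 0.98 in MlklKO (24.6% and 24.9% of all genes higher). Of the 8 that pass the filter on control livers, 6 rose in WT (16.3% of the genes kept on it) and 4 in each knockout (16.4% in Ripk3KO and 16.8% in MlklKO). Mcm6, a subunit of the MCM2-7 helicase loaded at origins, stood at 1.84, 4.22 and 6.85 CPM on control and 10.3, 18.2 and 21.99 on CD-HFD in WT, without overlap (log2 2.17, SE 0.22, adjusted p = 1.17e-10). It rose by 1.83 (SE 0.23, adjusted p = 1.85e-08) in Ripk3KO and 1.80 (SE 0.24, adjusted p = 5.48e-08) in MlklKO. Mcm2 stood at 1.84, 3.96 and 4.97 and 6.09, 11.3 and 15.3 CPM, also without overlap (log2 1.64, SE 0.28, adjusted p = 5.01e-06). Mcm7, another subunit of the helicase, did not pass, at 18.0 ± 4.33 (SD, n = 6) CPM on control and 19.4 ± 4.39 (SD, n = 6) on CD-HFD, a change of 0.11 (SE 0.14, adjusted p = 0.548). Mcm7 reads share a locus with miRNAs on the same strand and with 2 genes on the other. Mcm4 rose in WT (1.05, adjusted p = 0.000874) and did not pass in Ripk3KO (0.46, adjusted p = 0.165) or MlklKO (0.50, adjusted p = 0.163). Pcna, the sliding clamp of the fork, stood at 11.2, 21.0 and 34.4 CPM in WT control and 22.7, 35.4 and 46.4 in WT CD-HFD livers. The groups overlapped, and its rise of 0.76 (SE 0.19, adjusted p = 0.00086) was lost, as was that of Mcm4, with the larger clock phase alone. Cdc6, the licensing factor that loads the helicase, was at least 1.31-fold higher in WT, where CD-HFD replicate 6 lay inside the control range, and at least 1.49-fold in Ripk3KO and 1.95-fold in MlklKO.

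Of the 4 genes of nucleotide supply 2 rose and 1 fell in WT on CD-HFD, beside 23.5% of all genes higher and 24.1% lower, so a fall of 1 in 4 is near the share of all genes. Rrm1, the large subunit of ribonucleotide reductase, rose in all 3 genotypes on CD-HFD, by 0.75, 0.81 and 0.93 on the log2 scale. Tyms, thymidylate synthase, rose in WT by 0.78 (SE 0.18, adjusted p = 0.000324), and its changes in Ripk3KO (0.34) and MlklKO (0.46) did not pass. Tk1, the cytosolic thymidine kinase, went the other way in WT, from 26.9, 37.4 and 55.5 CPM on control to 9.27, 18.0 and 21.9 on CD-HFD and 9.05, 9.99 and 11.6 on CD-LFD. Both choline-deficient groups lay wholly below control, with changes of -1.20 (SE 0.25, adjusted p = 0.000115) and -1.96 (SE 0.26, adjusted p = 2.75e-07). In Ripk3KO it fell on CD-HFD by 0.87 (SE 0.28, adjusted p = 0.00964), and the call was lost without control replicate 1, at 68.2 CPM the highest of the 44 livers, or with scaling by library size. In MlklKO it changed by 0.10 (SE 0.31, adjusted p = 0.807). Tk1 overlaps Afmid on the other strand, and whether the counting used strand is not given in the sources used here.

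Rrm2, the small regulatory subunit of the reductase, was scattered in WT control livers at 3.45, 14.4, 4.09, 12.6, 3.20 and 1.96 CPM, around the CD-HFD values of 8.94, 6.82, 6.98, 5.73, 9.26 and 7.02. It changed by 0.20 (SE 0.31, adjusted p = 0.631) in WT. In MlklKO it fell from 15.7, 23.9, 21.99, 10.5, 21.3 and 12.7 to 7.66, 7.44 and 7.60 CPM, every CD-HFD liver below every control liver (log2 -1.22, SE 0.37, adjusted p = 0.00669). The fall did not pass under scaling by library size alone.

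**Figure D3:**
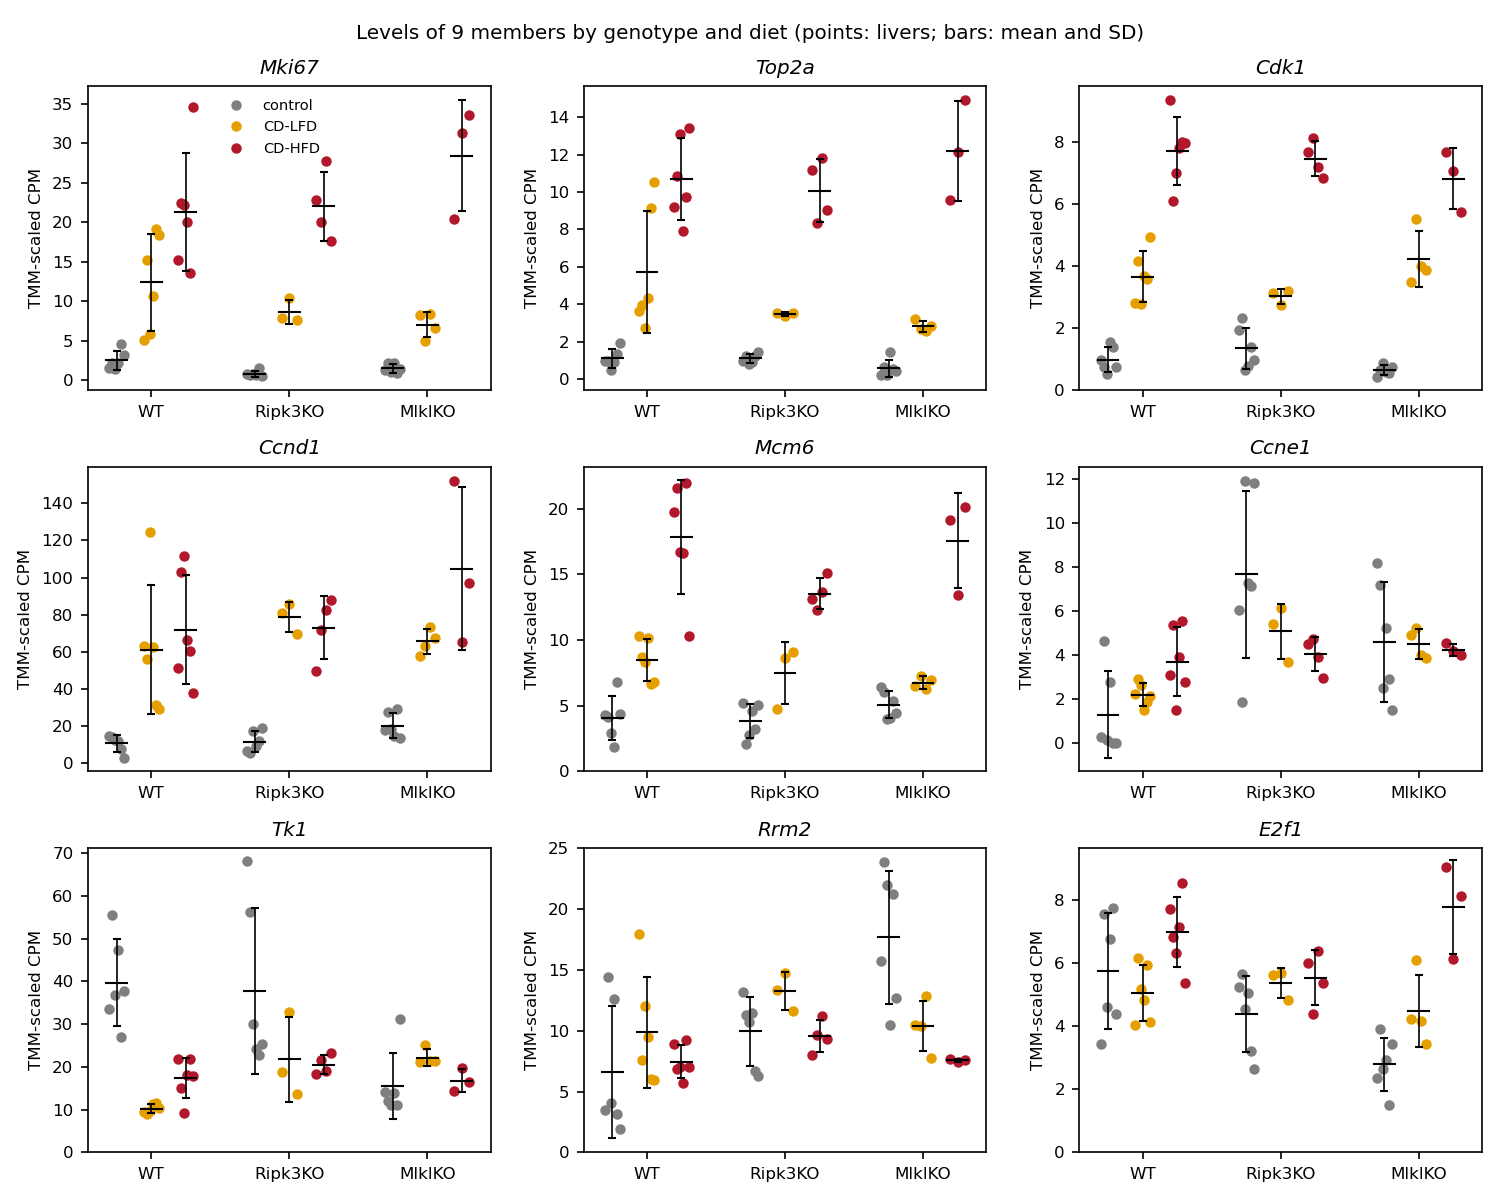
CPM of 9 members in each liver by genotype and diet, with mean and SD. Mki67, Top2a, Cdk1 and Mcm6 climb from control to CD-LFD to CD-HFD, while Ccne1, Tk1 and Rrm2 have control livers as high as or higher than those on CD-HFD.

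Of the 11 cyclins, kinases and checkpoint genes of G2 and M, 10 were called higher in WT and in Ripk3KO on CD-HFD, and 11 in MlklKO, beside 23.5%, 24.6% and 24.9% of all genes. Only Aurka of the 11 passes the filter on control livers, and Aurka was called in MlklKO alone. The other 10 entered the test through their levels on the choline-deficient diets, so the counts are a description and no support. Cdk1, the kinase of mitotic entry, was at 0.966, 0.733, 0.511, 1.54, 1.37 and 0.733 CPM in WT control livers. Low-fat livers held 2.79, 4.17, 2.78, 3.67, 3.59 and 4.93, and high-fat livers 9.35, 6.09, 6.98, 7.79, 7.97 and 7.95. The 3 diets did not overlap, and the CD-HFD change was 3.05 (SE 0.25, adjusted p = 3.86e-13), between means of 0.975 ± 0.401 and 7.69 ± 1.09 CPM (SD, n = 6 each). It rose by 2.48 (SE 0.24, adjusted p = 2.99e-11) in Ripk3KO and 3.35 (SE 0.27, adjusted p = 4.04e-13) in MlklKO.

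Ccnb1, the cyclin B1 partner of CDK1, gave 0 counts in 3 of 6 WT control livers, 4 of 6 in Ripk3KO and 3 of 6 in MlklKO. On CD-HFD it lay at 2.44, 2.56, 4.15, 2.38, 1.61 and 5.78 CPM in WT, 3.83, 3.40, 6.73 and 4.78 in Ripk3KO and 3.13, 6.79 and 7.20 in MlklKO, above every control liver of its genotype. The rise was at least 2.3-fold, 6.49-fold and 8.76-fold in these genotypes, and the fitted log2 changes of 4.28, 6.00 and 5.07 have no established size (adjusted p = 1.83e-06, 1.39e-08 and 2.82e-08). Ccnb1 and Ccnb2 have annotated pseudogene copies that could share reads. Ccnb2 was at 1.38, 1.71, 1.02, 0, 6.85 and 4.64 CPM in WT control livers, where replicates 5 and 6 reached into the CD-HFD values of 5.01, 3.90, 5.13, 5.41, 3.71 and 8.05. Its WT rise (log2 1.15, SE 0.41, adjusted p = 0.0185) was lost without WT control replicate 1, 3 or 4 or CD-HFD replicate 6, each in turn, and with those groups fitted alone. In Ripk3KO and MlklKO it rose by 2.91 (SE 0.48, adjusted p = 3.81e-06) and 3.66 (SE 0.52, adjusted p = 1.97e-07).

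Among the kinases, Ttk (MPS1, which recruits the spindle checkpoint) had control levels under the floor in all 3 genotypes. Its CD-HFD livers reached 1.35, 0.244, 1.09, 0.865, 0.483 and 1.65 CPM in WT, where no fold could be given, and were at least 2.14-fold higher in Ripk3KO and 2.14-fold higher in MlklKO. Aurkb, the kinase of the chromosomal passenger complex, was at least 1.96-fold, 4.42-fold and 4.3-fold higher in WT, Ripk3KO and MlklKO. Aurka, which acts at centrosomes, changed by 0.52 (SE 0.24, adjusted p = 0.0705) in WT and 0.54 (SE 0.25, adjusted p = 0.0769) in Ripk3KO, neither past the test, and rose in MlklKO by 1.28 (SE 0.27, adjusted p = 0.000179). Plk1, the Polo-like kinase, was at 0.414, 0, 0.170, 0.307, 3.20 and 1.22 CPM in WT control livers, replicate 5 among the CD-HFD values of 1.22, 2.07, 3.05, 3.14, 1.53 and 6.29, and rose by 2.05 (SE 0.52, adjusted p = 0.00119). The checkpoint kinase Bub1b rose in all 3 genotypes (adjusted p = 7.94e-08, 3.91e-08 and 1.49e-07).

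All 14 genes of the spindle, kinetochore, cytokinesis and chromosome structure were called higher in each genotype on CD-HFD, with median log2 changes of 2.00, 2.47 and 2.91 in WT, Ripk3KO and MlklKO, beside 23.5%, 24.6% and 24.9% of all genes. Only Mki67, Cdca3 and Stmn1 pass the filter on control livers, and these 3 rose in each genotype (16.3%, 16.4% and 16.8% of the genes kept on it). The other 11 entered the test through their levels on the choline-deficient diets, and their count is no support. Mki67, the proliferation antigen that coats mitotic chromosomes, was at 1.36, 2.18 and 4.56 CPM on control and 13.5, 21.1 and 34.6 on CD-HFD in WT (log2 3.22, SE 0.32, adjusted p = 6.42e-11). In Ripk3KO it went from 0.481, 0.704 and 1.54 to 22.8, 19.96, 27.7 and 17.6 (log2 4.67, SE 0.37, adjusted p = 1.65e-13), and in MlklKO from 0.828, 1.32 and 2.19 to 20.4, 31.3 and 33.6 (log2 4.29, SE 0.35, adjusted p = 4.04e-13). In no genotype did control and CD-HFD livers overlap. Top2a, the topoisomerase that untangles sister chromatids, was at 0.511, 0.972 and 1.96 and 7.90, 10.3 and 13.4 CPM in WT, again apart (log2 3.31, SE 0.32, adjusted p = 3.86e-11).

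Tpx2, which targets Aurora A to the spindle, was at least 3.54-fold, 9.18-fold and 9.9-fold higher on CD-HFD in WT, Ripk3KO and MlklKO. Its WT livers held 0.414, 0.244, 0.511, 0, 0.456 and 0 CPM on control and 2.71, 4.75, 5.78, 3.89, 4.51 and 7.43 on CD-HFD. Cenpf, a kinetochore protein, held 0.690, 0, 0.170, 0.307, 0 and 0 and 2.44, 2.44, 6.00, 3.57, 2.66 and 6.09 (at least 2.82-fold). Cenpe, the kinetochore motor that aligns chromosomes, held 0.276, 0.244, 0.681, 0, 0 and 0.978 and 5.69, 4.99, 4.25, 4.87, 4.03 and 9.08 (at least 4.01-fold). None of these 3 overlapped between the diets in WT. In the knockouts Cenpe was at least 9.34-fold and 7.81-fold higher.

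Birc5, or survivin, a passenger complex subunit, was at 0.690, 1.22, 1.02, 4.30, 0.913 and 1.47 CPM in WT control livers, 1 of which, replicate 4, lay among the CD-HFD values of 4.2, 3.41, 3.27, 2.70, 4.59 and 5.88. Its rise of 1.41 (SE 0.42, adjusted p = 0.00522) was lost with clock phase in the fit and with the larger phase alone. Kif20a, a kinesin of cytokinesis, rose in WT by 1.25 (SE 0.48, adjusted p = 0.0298), a call lost without WT control replicate 1 or 6, CD-HFD replicate 3 or 6, or the 4 libraries left out together, and with the larger clock phase alone (adjusted p up to 0.529). Stmn1, the microtubule-destabilising stathmin, was at 3.42, 4.33 and 7.76 CPM on control and 12.5, 19.3 and 22.5 on CD-HFD in WT, without overlap (log2 1.88, SE 0.22, adjusted p = 2.64e-09). For the anaphase-promoting complex, its activator Cdc20 rose by 2.90 (SE 0.39, adjusted p = 5.28e-08) in WT, 3.80 in Ripk3KO and 3.40 in MlklKO. Its E2 enzyme Ube2c was at least 4.49-fold higher in WT and 8.93-fold higher in MlklKO, and rose by 3.12 (SE 0.50, adjusted p = 1.92e-06) in Ripk3KO.

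**Figure D4:**
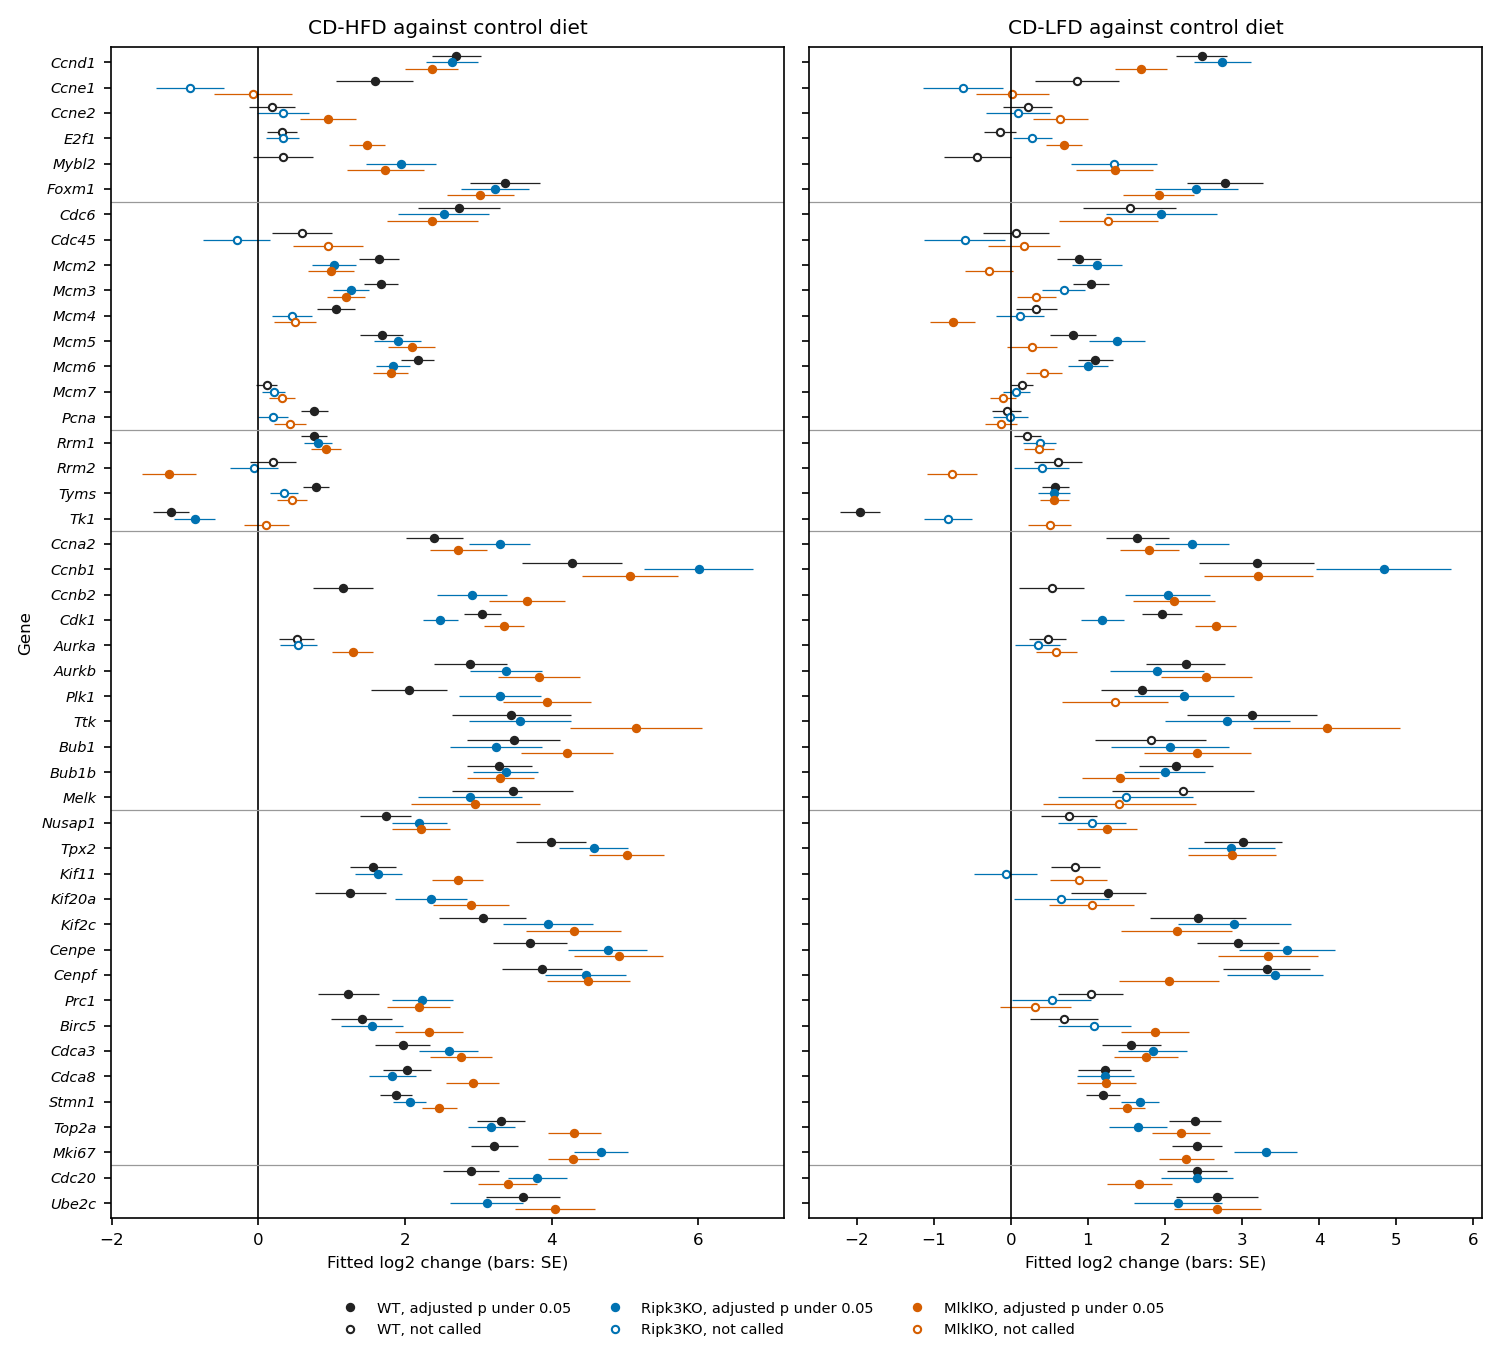
Fitted log2 change (points, with SE bars) of each of the 46 genes on CD-HFD and on CD-LFD against control in 3 genotypes, with filled points for adjusted p under 0.05. All 14 spindle and chromosome genes are filled in the 3 genotypes on CD-HFD, and Tk1 lies left of 0 in WT and Ripk3KO.

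Fewer members passed the test on CD-LFD. In WT 26 rose and 1 fell (13.7% of all genes higher and 14% lower, members' median 1.21, or 0.78 at the bounds). In Ripk3KO 27 rose and none fell (14% higher and 10.1% lower, median 1.36, or 1.07 at the bounds), and in MlklKO 26 rose and 1 fell (19.7% higher and 18.3% lower, median 1.35, or 0.67 at the bounds). All CD-LFD livers were above all control livers for 12, 24 and 18 members in WT, Ripk3KO and MlklKO, as for 5.04%, 10.9% and 13.6% of all genes. The 20 members that rose in the 3 genotypes, as 6.84% of all genes did, included Mki67, Top2a, Cdk1, Ccnb1, Ccnd1 and Foxm1. Of the 20 members that pass the filter on control livers, 9 rose and 1 fell in WT (10.2% of genes kept on that filter higher, 17.2% lower). In Ripk3KO 8 rose and none fell (9.84% and 12.5%), and in MlklKO 6 rose and 1 fell (16.4% and 22.6%). When WT control and CD-LFD were fitted alone, 25 members were tested, 9 rose and 1 fell. The same fit in MlklKO tested 27, of which 13 rose and 2 fell. These fits test another set of genes, so their counts are not set against the shares above. With library size scaling the share of all calls that were higher went from 49.6% to 84.9% in WT, from 58% to 88.4% in Ripk3KO and from 51.9% to 66.1% in MlklKO, with 36, 32 and 30 members higher.

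Among the called members with the largest fitted changes on CD-LFD, those given as "at least" had control livers at or under the floor, so their order of size is not known. Cenpf held 0.977, 1.63, 1.21, 2.34, 5.81 and 4.26 CPM in WT livers on CD-LFD, at least 1.97-fold above control, and Ccnb1 0, 2.54, 1.08, 1.34, 2.47 and 1.73, at least 1.11-fold, with replicate 1 at 0 counts among the control values. In Ripk3KO, Ccnb1 held 3.33, 2.32 and 1.06 CPM (at least 3.1-fold) and Cenpe 4.17, 2.74 and 2.27 (at least 4.24-fold). In MlklKO, Ttk held 0.509, 1.19, 0.642 and 0.447 (at least 1.07-fold) and Cenpe 2.71, 1.19, 2.25 and 0.447 (at least 2.53-fold). Of the 9 replication genes, 4 rose on CD-LFD in WT (13.7% of all genes higher) and in Ripk3KO (14%). In MlklKO 0 of 9 rose and 1 fell (19.7% higher, 18.3% lower), and the interaction of MlklKO with CD-LFD called 0 of the 9. The 1 was Mcm4, which fell from 3.43, 5.23 and 7.97 to 3.31, 2.83, 4.17 and 2.68 CPM (log2 -0.75, SE 0.29, adjusted p = 0.0358) with overlap. That call was lost with library size scaling, with no count filter, and without MlklKO control replicate 1 or 5 or CD-LFD replicate 1, 2 or 4 (adjusted p up to 0.0952). Ccnd1 reached 63.2, 56.0, 125, 62.8, 31.3 and 29.4 CPM in WT CD-LFD livers, with replicate 3 far above the others, and rose by 2.48 (SE 0.33, adjusted p = 4.2e-07). CD-HFD and CD-LFD share their control livers, so the 2 sets of changes are not independent.

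Set against CD-LFD directly, CD-HFD raised 19 members in WT and lowered none (13.7% of all genes higher and 7.4% lower, median 0.72). It raised 9 in Ripk3KO (5.75% higher and 3.08% lower, median 0.79) and 26 in MlklKO (14.6% higher and 9.14% lower, median 1.18), and lowered none. The livers of both diets were apart, with CD-HFD above, for 4, 24 and 32 members in WT, Ripk3KO and MlklKO, as for 7.63%, 16% and 20.8% of all genes. The WT count was 4, with 3 higher and 1 lower, when clock phase was in the fit, and 11 without WT CD-LFD replicate 3, the deepest library. The Ripk3KO count was 4 without CD-LFD replicate 1, and lower by over 1.5 times also without CD-LFD replicate 2 or CD-HFD replicate 3, and it was 18 when those 2 groups were fitted alone. The MlklKO count was 17 without CD-HFD replicate 4. With library size scaling the counts were 24, 13 and 36, and the share of all calls higher went from 65% to 85.9% in WT, from 65.1% to 88.8% in Ripk3KO and from 61.4% to 92.5% in MlklKO. Bub1, a checkpoint kinase, stood at 0.279, 0.362, 0.482, 0.167, 0.495 and 0.666 CPM in low-fat WT livers and 0.677, 0.974, 0.982, 1.95, 0.967 and 2.79 in high-fat ones (log2 1.67, SE 0.43, adjusted p = 0.00332), fully apart, and this call was lost with clock phase in the fit (adjusted p = 0.297). Cdc6 stood at 0.837, 0.905, 0.620, 0.835, 0.618 and 1.07 and 1.90, 2.07, 1.31, 2.16, 2.82 and 0.516 (log2 1.19, SE 0.41, adjusted p = 0.0348), with CD-HFD replicate 6 lowest of all 12. That call was lost with no count filter, with the replicate block, with clock phase in the fit, and without CD-LFD replicate 1, 3, 4 or 5 or CD-HFD replicate 1, 2, 4 or 5 (adjusted p up to 0.627).

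In Ripk3KO the largest fitted rises over CD-LFD were those of Tpx2, from 2.08, 1.90 and 2.04 to 6.83, 4.17, 10.1 and 5.46 CPM (log2 1.72, SE 0.45, adjusted p = 0.0106), and Prc1, the midzone crosslinker, from 0.625, 1.48 and 1.51 to 3.16, 3.40, 5.07 and 4.69 (log2 1.71, SE 0.49, adjusted p = 0.0213). The Tpx2 call was lost without CD-LFD replicate 2 (adjusted p = 0.0626), and the Prc1 call without CD-LFD replicate 1 or 2 or CD-HFD replicate 3 or 5 (adjusted p up to 0.13). In MlklKO they were those of Plk1, from 1.10, 0.298, 0.962 and 0.596 to 3.83, 4.96 and 5.20 (log2 2.59, SE 0.58, adjusted p = 0.000955), and Cenpf, from 0.678, 0.447, 1.44 and 1.19 to 3.13, 5.61 and 6.26 (log2 2.44, SE 0.51, adjusted p = 0.000492). All 4 pairs of groups were apart. Group means ran control, CD-LFD, CD-HFD in rising order for 38 members in WT, 37 in Ripk3KO and 38 in MlklKO, as for 26.5%, 27.5% and 26% of all genes. All livers of the 3 diets were separated in that order for 2 members in WT (1.51% of all genes), 16 in Ripk3KO (3.2%) and 15 in MlklKO (4.53%). WT groups had more livers, which makes separation harder. Both sets of counts include the 26 members that entered the test through their levels on the choline-deficient diets. The counts are a description and no support. The mean log2 CPM over the 46 genes was 0.66 ± 0.0741 on control, 1.85 ± 0.264 on CD-LFD and 2.46 ± 0.107 on CD-HFD in WT (SD, n = 6 each). It was 0.62 ± 0.109, 1.82 ± 0.0527 and 2.54 ± 0.141 in Ripk3KO (n = 6, 3 and 4), and 0.55 ± 0.091, 1.58 ± 0.0753 and 2.68 ± 0.157 in MlklKO (n = 6, 4 and 3).

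The libraries labelled as knockouts were then set against WT on each diet. On CD-HFD no member passed the test in either knockout. In Ripk3KO 0 of 46 were called beside 0.209% of all genes higher and 0.168% lower, 3 had an unadjusted p under 0.05, and DESeq2 called 0. In MlklKO 0 were called beside 0% of all genes in either direction, 2 had an unadjusted p under 0.05, and DESeq2 called 0. Median log2 differences were 0.05 and 0.19. Single members ranged from -0.83 to 0.90 in Ripk3KO and from -0.52 to 1.06 in MlklKO, so with 4 and 3 livers differences of that size did not pass.

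On control chow Ccne1 was the 1 member called in Ripk3KO, at 6.03, 1.89, 11.9, 7.25, 7.12 and 11.8 CPM against the WT values given above (log2 2.62, SE 0.52, adjusted p = 0.00139; 2.25% of all genes higher, 2.23% lower). The groups overlapped, and the call was lost with clock phase in the fit (adjusted p up to 0.366 over the alternatives), in the larger phase alone and with those groups alone. The count of 1 was 3 with library size scaling, with DESeq2 and with the replicate block, and 1 to 4 when single libraries were left out. It rose by more than 1.5 times without any 1 of WT control replicates 1 to 4 or Ripk3KO control replicates 1 and 5. In MlklKO 4 members were higher and 4 lower on control (13% of all genes higher, 14.1% lower). Higher were Ccne1, at 8.19, 7.17, 2.51, 5.25, 2.90 and 1.49 CPM (log2 1.84, SE 0.53, adjusted p = 0.00893), Rrm2, at 15.7, 23.9, 21.99, 10.5, 21.3 and 12.7 (log2 1.44, SE 0.31, adjusted p = 0.000607), Ccnd1 (0.88, adjusted p = 0.0446) and Pcna (0.60, adjusted p = 0.0161). None of the 4 passed with clock phase in the fit, and Ccne1, Ccnd1 and Pcna also did not pass without the 4 libraries named above.

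Lower in MlklKO on control were Ccnb2, at 0.215, 0.652, 0.754, 0.583, 0.690 and 0.298 CPM (log2 -2.06, SE 0.53, adjusted p = 0.00363), Mybl2, at 0.431, 0.434, 0.126, 0.146, 0.276 and 1.04 against 0.690, 0.977, 0.851, 0.615, 1.37 and 1.96 in WT (log2 -1.35, SE 0.50, adjusted p = 0.0392), Tk1, at 14.2, 11.9, 11.2, 14, 11.2 and 31.2 (log2 -1.34, SE 0.25, adjusted p = 0.000128), and E2f1 (log2 -1.005, SE 0.22, adjusted p = 0.000923). Tk1 and E2f1 passed in every fit run, and Ccnb2 and Mybl2 did not pass with clock phase in the fit or without the 4 libraries. The Mybl2 call was also lost without any 1 of WT control replicates 5 and 6 or MlklKO control replicates 1 to 5. All 8 calls overlapped between the groups. Without WT control replicate 6 the count of 8 was 5, and the Ccnd1 and Pcna calls were among those lost. Ccnd1 also lost its call without WT control replicate 4 or 5, or MlklKO control replicate 1, 2, 3 or 5.

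On CD-LFD no member was called in Ripk3KO (0.794% of all genes higher, 0.31% lower, 5 members with an unadjusted p under 0.05), where DESeq2 called 1. In MlklKO 1 was called, Tk1, at 21.1, 25.0, 21.3 and 21.3 CPM against 9.35, 9.05, 9.60, 11.4, 11.6 and 10.4 in WT (log2 1.12, SE 0.28, adjusted p = 0.0175; 1.64% of all genes higher, 0.929% lower). Every MlklKO liver was above every WT liver, and the call was lost with clock phase in the fit and without MlklKO CD-LFD replicate 2. The count of 1 was 8 with library size scaling, 4 with DESeq2, 3 with those groups fitted alone and 2 with RLE factors. Leaving out single libraries gave 0 to 4, with counts above 1 without WT CD-LFD replicate 1 or 3.

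Whether the diet response itself differed from WT was tested as an interaction. No member passed for Ripk3KO on CD-HFD (0.135% of all genes higher, 0.343% lower, 5 members at an unadjusted p under 0.05, DESeq2 1) or on CD-LFD (0.00673% and 0.0202%, 3 members, DESeq2 0). For MlklKO on CD-HFD, Ccnb2 (log2 2.51, SE 0.68, adjusted p = 0.0278), Tk1 (log2 1.30, SE 0.39, adjusted p = 0.0476) and E2f1 (log2 1.15, SE 0.32, adjusted p = 0.0336) responded more positively than in WT (1.58% of all genes higher, 2.54% lower). On CD-LFD, Tk1 responded more positively (log2 2.46, SE 0.38, adjusted p = 7.58e-05; 4.37%) and Rrm2 more negatively (log2 -1.37, SE 0.45, adjusted p = 0.0471; 4.08%). The MlklKO control levels of Ccnb2, Tk1 and E2f1 were lower, and that of Rrm2 higher, than in WT. For the CD-LFD calls no fit of the larger clock phase alone could be made, as that phase holds no WT CD-LFD liver. Of the 5 calls, only that of Tk1 on CD-LFD passed in every fit run. The other 4 were each lost when single livers of WT control, of MlklKO control and of MlklKO on the diet tested were left out in turn. Without the 4 libraries named above, 1 of which is an MlklKO CD-HFD liver, the calls of Ccnb2 and E2f1 on CD-HFD and of Rrm2 on CD-LFD were lost. With clock phase in the fit that of Ccnb2 was lost, and with the replicate block those of Tk1 and E2f1 on CD-HFD.

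Livers of 1 group did not share 1 level of the whole cycle. WT CD-HFD replicate 6 had the highest level of its group for 22 members, all mitotic genes, Foxm1 or Stmn1, and the lowest for 12, among them Mcm2 to Mcm6, Pcna, Ccnd1, Cdc6 and E2f1. WT CD-HFD replicate 5 was the reverse, highest for 12 members including Mcm3, Mcm4, Mcm6, Mcm7, Rrm1, Rrm2 and E2f1, and lowest for 7 mitotic genes. Over the 9 replication genes, the mean log2(CPM + 0.5) was 2.62 in replicate 6 and 3.69 in replicate 5, and over the 14 spindle and chromosome genes it was 2.99 and 2.22. In MlklKO CD-HFD, replicate 1, the liver with the highest Mlkl of that group, stood at 3.44 and 2.498 on these scales, replicate 2 at 2.89 and 3.002, and replicate 4 at 3.34 and 2.94, high on both. The 4 Ripk3KO CD-HFD livers ran from 2.72 to 3.001 and from 2.53 to 3.02, with replicate 3 at 2.93 and 3.02. Among WT CD-LFD livers, replicate 1 stood at 2.95 and 1.26, and replicate 6 at 2.38 and 2.37. The grouping was noticed in these values, and no test was made of it.

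**Figure D5:**
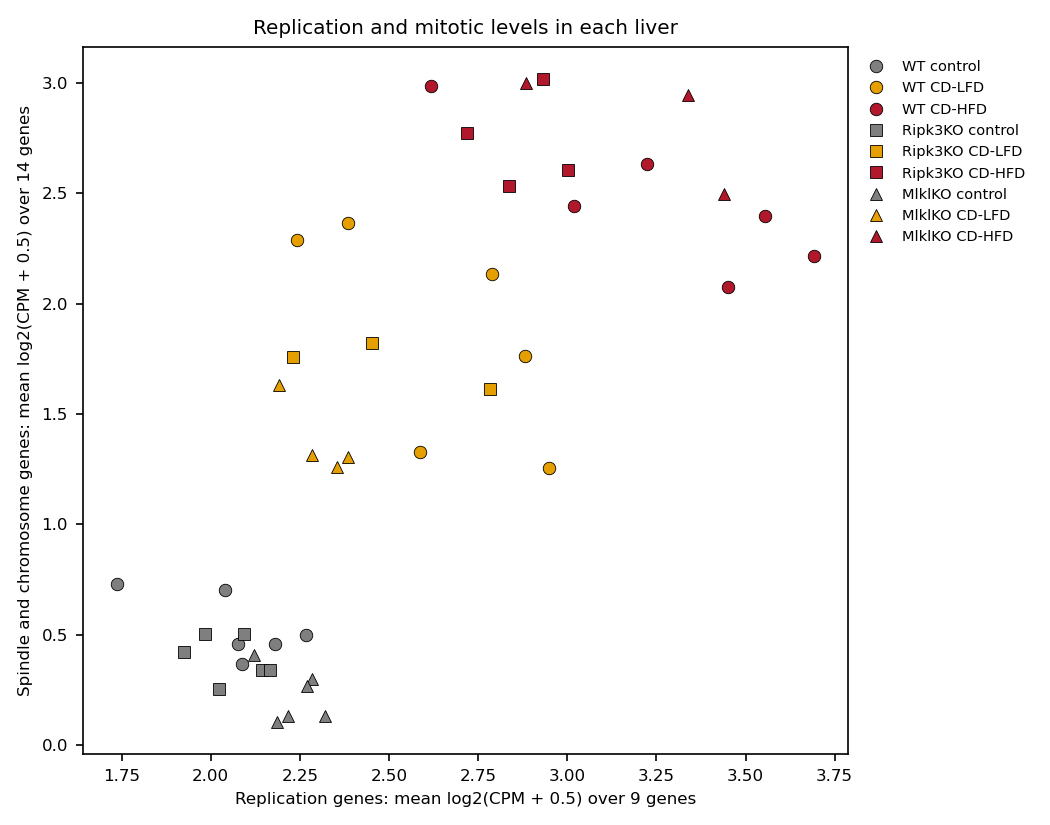
Mean log2(CPM + 0.5) of the 14 spindle and chromosome genes against that of the 9 replication genes, 1 point per liver, coloured by diet and shaped by genotype. Control livers lie between 1.74 and 2.32 on the replication axis and at most 0.73 on the other, and WT CD-HFD livers spread from 2.62 and 2.99 to 3.69 and 2.22.

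Cycle genes outside the 46 were taken from a second list of 56, of which 53 were tested. On CD-HFD 35 rose and 1 fell in WT, beside 23.5% of all genes higher and 24.1% lower. In Ripk3KO 34 rose and 3 fell (24.6% and 21.7%), and in MlklKO 34 rose and 1 fell (24.9% and 20.3%). The medians of the log2 change were 1.52, 1.27 and 1.65. Only 28 of the 53 pass the count filter on the control libraries alone. Of those 28, 12 rose and 1 fell in WT (16.3% of the genes kept on that filter higher, 29.6% lower), 12 rose and 2 fell in Ripk3KO (16.4% and 26.7%), and 12 rose and 1 fell in MlklKO (16.8% and 25.3%), so most of the 53 that rose pass the filter only with the livers of the other diets. Uhrf1, which helps maintain DNA methylation at the fork, held 0.448 ± 0.303 CPM in WT control livers, all at or under the floor. It held 6.18 ± 2.34 on CD-HFD (SD, n = 6 each), at least 4.52-fold higher (adjusted p = 1.7e-08). Racgap1, a centralspindlin subunit, was also at or under the floor in all WT control livers and at least 3.63-fold higher on CD-HFD (adjusted p = 1.15e-07). Mad2l1, the checkpoint protein MAD2, rose by 2.04 (SE 0.26, adjusted p = 1.88e-08). Pttg1, or securin, was the one that fell in WT (log2 -0.72, SE 0.20, adjusted p = 0.00337). Ccnd2 rose by 1.52 (SE 0.19, adjusted p = 1.36e-08), while Ccnd3 changed by 0.17 (SE 0.14, adjusted p = 0.304).

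Of 14 genes of arrest 12 were tested, and in WT on CD-HFD 5 rose and 1 fell, beside 23.5% of all genes higher and 24.1% lower. In each knockout 4 rose and none fell (24.6% and 21.7% of all genes in Ripk3KO, 24.9% and 20.3% in MlklKO). Of the 11 that pass the count filter on the control libraries alone, 4 rose and 1 fell in WT, and 3 rose and none fell in each knockout. Of all genes kept on that filter 16.3%, 16.4% and 16.8% were higher in WT, Ripk3KO and MlklKO, and 29.6%, 26.7% and 25.3% lower. Cdkn1a, the p21 inhibitor of cyclin-dependent kinases, rose from 5.79 ± 2.91 to 26.4 ± 7.14 CPM (log2 2.17, SE 0.39, adjusted p = 1.2e-05). In Ripk3KO it rose by 1.92 (SE 0.40, adjusted p = 0.000144). In MlklKO it stood at 19.99 ± 9.98 on control and 29.9 ± 5.06 on CD-HFD, a change of 0.59 (SE 0.41, adjusted p = 0.25) from a control level above that of WT (log2 1.76, SE 0.39, adjusted p = 0.000865). Cdkn2c, the p18 inhibitor of CDK4 and CDK6, rose in all 3 genotypes, by 1.98, 2.28 and 2.88. Rbl1, the p107 pocket protein, rose by 2.35 (SE 0.29, adjusted p = 1.14e-08) in WT, and its relative Rbl2, p130, fell there (log2 -1.09, SE 0.29, adjusted p = 0.00171).

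Markers of other cell types differed between the diets too, and the counts below stand beside 23.5% of all genes higher and 24.1% lower in WT on CD-HFD. Summed over 9 macrophage genes, CPM in WT livers was 176, 216 and 230.0 (lowest, median, highest) on control and 989.5, 1185 and 2559 on CD-HFD, with 6 of 9 higher and 2 lower. In Ripk3KO the sums were 62.8, 161 and 404 and 1387, 1589.7 and 1949, and in MlklKO 100.2, 152 and 257 and 1426, 2033 and 2448. The 5 cholangiocyte genes all rose in WT, with sums of 44.6, 58.0 and 83.1 and 675, 867 and 1122. The stellate or myofibroblast sums were 60.7, 75.2 and 114 and 468, 737 and 1062, with 6 of 7 higher. The 6 T cell genes summed to 1.95, 3.64 and 4.56 and 10.8, 15.8 and 25.6, with 5 higher.

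Hepatocyte markers were present in every group and all 7 fell in WT on CD-HFD, with sums of 87450.2, 123576 and 154298 and 54183, 61566 and 90281. In Ripk3KO all 7 fell and in MlklKO 4 of 7 (21.7% and 20.3% of all genes lower). Of 5 endothelial markers 4 fell in WT, 3 in Ripk3KO and 1 in MlklKO. Of the 3 B cell markers tested, 1 rose in WT and 3 in each knockout. Of the 3 erythroid markers tested 1 fell in WT, 2 in Ripk3KO and 1 in MlklKO. Of 2 neutrophil markers tested 1 rose in WT and 0 in each knockout. On CD-LFD in WT the macrophage sums were 236, 308 and 375 and the cholangiocyte sums 119.8, 211 and 347. Of 6 T cell genes 5 rose and 1 fell there, 6 of 7 stellate or myofibroblast genes rose and 4 of 7 hepatocyte genes fell (13.7% of all genes higher, 14% lower). In each knockout on CD-LFD 4 of 6 T cell and 3 of 3 B cell genes rose and 2 of 7 hepatocyte genes fell, while 1 hepatocyte gene rose in MlklKO. Shares of all genes were 14% higher and 10.1% lower in Ripk3KO and 19.7% and 18.3% in MlklKO. No measurement here assigns the cycle transcripts to a cell type, and the part of these cell types in the changes of the 46 genes was not tested.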

How the data were processed

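RNA of 44 liver samples was sequenced with a directional kit, per the labels' protocols. FastQC, STAR, HTSeq, edgeR and limma and the build GRCm39 are named in the submitters' processing notes, and whether reads were counted by strand is not given in the sources used here. The authors deposited raw gene counts, and these counts were used as they stand. Symbols were found for 34373 of the 35249 gene IDs. Genes were kept with filterByExpr at a minimum count of 10 (14862 genes, 99.85% of counts), scaled with TMM factors (0.799 to 1.34) and tested with edgeR 4.0.16 in R 4.3.3 (quasi-likelihood test, 9 group means over all 44 libraries, Benjamini-Hochberg adjustment within each of 19 comparisons, threshold 0.05). Every adjusted p in the text comes from this test unless DESeq2 1.42.0 is named. Standard errors were taken as the absolute log2 change over the root of the F statistic. Folds given as "at least" are set against 3 counts in the smallest library of a group whose libraries are all at or under that floor, which covers counting error only. The scripts were tested on simulated counts. No 2 libraries matched within sampling noise (smallest chi-square per degree of freedom 7.22). Alternatives were other scalings, no filter, DESeq2, the compared groups alone, a replicate block, clock phase, and leaving out libraries. Genes given with per-library values were a fixed set of 15 plus the members with the largest called rises and falls in each comparison, and per-library values given outside the comparison that named a gene were added after its values were seen. The members and gene lists were chosen with earlier results of these data known. Of the 46 members 4 (Top2a, Mcm7, Foxm1 and Stmn1) overlap another gene on the same strand, 13 overlap one on the other strand and 4 (Ccnb1, Ccnb2, Pcna and Tyms) have pseudogene copies, so their counts are uncertain.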

Additional observations from a re-analysis of the deposited data

Results flagged for a closer look

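Among 112 sets of values from groups of 4 to 10 livers, 6 held a liver far from the others, and chance alone marks about 1 in 20. Ccnb1 was at 0.489 CPM in WT control replicate 6 and at 0 to 0.170 in the other 5. These are 2 counts against 0 or 1, all under the floor, so this flag carries little weight. Birc5 was at 4.30 CPM in WT control replicate 4 against 0.690 to 1.47, and at 3.13 in MlklKO control replicate 6 against 0.216 to 0.754. Ccnd1 was at 124.8 CPM in WT CD-LFD replicate 3, the deepest library, against 29.4 to 63.2. Mki67 was at 1.54 CPM in Ripk3KO control replicate 5 against 0.481 to 0.815, and Top2a at 1.46 in MlklKO control replicate 4 against 0.216 to 0.652.

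The diet response of 4 members differed between MlklKO and WT in edgeR's test of the interaction. On CD-HFD the log2 difference in response was 2.51 for Ccnb2 (adjusted p = 0.0278), 1.30 for Tk1 (adjusted p = 0.0476) and 1.15 for E2f1 (adjusted p = 0.0336). On CD-LFD it was 2.46 for Tk1 (adjusted p = 7.58e-05) and -1.37 for Rrm2 (adjusted p = 0.0471).

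The Ccnb2 call was lost without WT control replicate 5 or 6, MlklKO control replicate 1, or MlklKO CD-HFD replicate 2 or 4. That of Tk1 on CD-HFD was lost without WT control or WT CD-HFD replicate 2, 3, 4 or 6, MlklKO control replicate 1 to 5, or any MlklKO CD-HFD liver. That of E2f1 was lost without WT control replicate 2 or 5, WT CD-HFD replicate 6, MlklKO control replicate 1, 3 or 5, or any MlklKO CD-HFD liver. That of Rrm2 was lost without WT control replicate 1, 3, 5 or 6, WT CD-LFD replicate 1, 3 or 4, MlklKO control replicate 1, 2, 3 or 5, or MlklKO CD-LFD replicate 1, 2 or 4. Those of Ccnb2, E2f1 and Rrm2 were also lost without WT control replicates 5 and 6, Ripk3KO control replicate 5 and MlklKO CD-HFD replicate 1 together. With the compared groups fitted alone all 4 were lost. That of Ccnb2 was lost with clock phase in the fit and, as was that of Tk1 on CD-HFD, with the larger phase alone. The calls of Tk1 on CD-HFD and of E2f1 were lost with the replicate block and with no count filter.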

How the results depend on the processing

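Of 264 pairs of member and comparison called, none reversed under any alternative and 183 passed in every fit that tested them. Counts of members called moved by over 1.5 times as follows, and the cause was not tested. With the compared groups fitted alone, which tests fewer genes, they were 10 for CD-LFD against control in WT and 15 in MlklKO, 18 for CD-HFD against CD-LFD in Ripk3KO, 0 for Ripk3KO against WT on control and 1 on CD-LFD, 3 for MlklKO against WT on control and 3 on CD-LFD, and 0 and 1 for the MlklKO interactions on CD-HFD and CD-LFD. With clock phase in the fit they were 4 for CD-HFD against CD-LFD in WT, 0 and 2 for Ripk3KO and MlklKO against WT on control, and 0 for MlklKO against WT on CD-LFD. With the larger clock phase alone they were 0 and 2 for the knockouts on control and 1 for the MlklKO interaction on CD-HFD. That phase holds no WT CD-LFD liver, so comparisons with that group could not be made there. Without the 4 doubted libraries, MlklKO against WT on control gave 3 and the MlklKO interactions 1 each, and CD-HFD against control gave 37, 36 and 37 in WT, Ripk3KO and MlklKO. Library size scaling gave 3 for Ripk3KO on control, 8 for MlklKO on CD-LFD and 4 for the MlklKO interaction on CD-LFD. RLE factors gave 2 for MlklKO on CD-LFD. Without the count filter, the interactions on CD-HFD gave 1 for Ripk3KO and 1 for MlklKO. DESeq2 gave 3 for Ripk3KO on control, 1 and 4 for Ripk3KO and MlklKO on CD-LFD, and 1 for the Ripk3KO interaction on CD-HFD.

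Leaving out 1 library at a time gave these ranges. CD-HFD against control ran from 37 to 40 in WT, 36 to 37 in Ripk3KO and 37 to 39 in MlklKO, and CD-LFD against control from 25 to 30, 21 to 28 and 24 to 30. CD-HFD against CD-LFD ran from 11 to 20, 4 to 7 and 17 to 24. Ripk3KO against WT ran from 1 to 4 on control, 0 to 1 on CD-LFD and 0 to 0 on CD-HFD, and MlklKO against WT from 5 to 9, 0 to 4 and 0 to 0. The interactions ran from 0 to 1 and 0 to 0 for Ripk3KO on CD-HFD and CD-LFD, and from 0 to 4 and 1 to 6 for MlklKO.

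What the replicate numbers mark is not stated. In none of the 15 comparisons of 2 groups did every same-numbered pair of livers correlate above 0.1. Single pairs reached up to 0.545 (CD-LFD against control in WT), and whether the numbers mark a litter, cage or day was not tested. Every liver correlated best with its own number only for CD-HFD against control in MlklKO, a hint from the data. With the replicate block, Ripk3KO against WT on control gave 3 calls, and CD-HFD against control gave 39, 36 and 39 in WT, Ripk3KO and MlklKO. In the control groups 11 to 13 members lay at or under the floor, and in the other groups 0. The part of depth in this was not tested.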
